A study of Mus musculus with 6 samples.

Results

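The Wnt ligands, their Frizzled receptors and the coreceptors were followed as a family of 35 genes in pancreata of E13.5 mouse embryos. The members were listed by name (19 Wnt ligand genes, the 10 Frizzled genes, Lrp5, Lrp6, Ryk, Ror1, Ror2 and Porcn), and all 35 were measured, out of 19938 genes tested. A member was read from the table row that carries its symbol and no other, and Wnt4 alone had a further row. RNA had been pooled from 3 pancreata per sample, and each of 3 control pools (wild type in the labels, with no other allele given) and 3 mutant pools (Pdx-Cre beta catenin-exon3 floxed (active) in the labels, Pdx1-Cre; Ctnnb1tm1Mmt/+ in the methods) was measured on its own Affymetrix Mouse Gene ST array. The mutants carry Cre under the Pdx1 promoter, which is active in the pancreatic primordium, and 1 floxed Ctnnb1 allele whose exon 3 is removed by Cre, so that β-catenin from this allele is not degraded. Whole pancreata were pooled, so epithelium, mesenchyme, nerves and vessels all contribute RNA, whereas the Cre driver is epithelial.

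Wnt ligands are secreted glycoproteins that need a lipid, added by Porcn in the endoplasmic reticulum, to leave the cell and to bind their receptors. When a ligand joins a Frizzled with Lrp5 or Lrp6, the complex that degrades β-catenin is blocked and β-catenin enters the nucleus. Frizzleds together with Ror1, Ror2 or Ryk also pass on signals that do not use β-catenin and that guide cell movement and polarity. The stabilized β-catenin of the mutants acts below all of these receptors, and the comparison of both genotypes asks which genes of the ligand and receptor layer had another level when the pathway was switched on from within.

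In the mutant pools, Wnt7b fell 4.18-fold and Wnt2b and Wnt5a fell by less, whereas the ligand genes Wnt4 and Wnt6 and the receptor genes Fzd1, Fzd7, Fzd9, Fzd10 and Ror1 rose. The largest increase among the members was that of Fzd10, 2.63-fold. By limma, at a threshold of 0.05 for p-values adjusted by Benjamini-Hochberg over the 19938 genes, 7 of the 35 members were higher (20.0%, against 6.59% of all genes) and 3 were lower (8.57%, against 7.53% of all genes). The other 25 did not pass the test. The median log2 change, mutant minus control throughout, was 0.11 over the members and 0.03 over all genes. The pools of both genotypes did not overlap in 16 of the 35 members (45.7%), and in 30.9% of all genes. Without mutant replicate 1 the number of all genes called higher was 843 in place of 1313. The values are normalized log2 array values as deposited, the precision of each rests on 3 pools per genotype, and because probes differ in brightness, differences between genes are read for their change between genotypes and not as an order of levels.

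**Figure D1:**
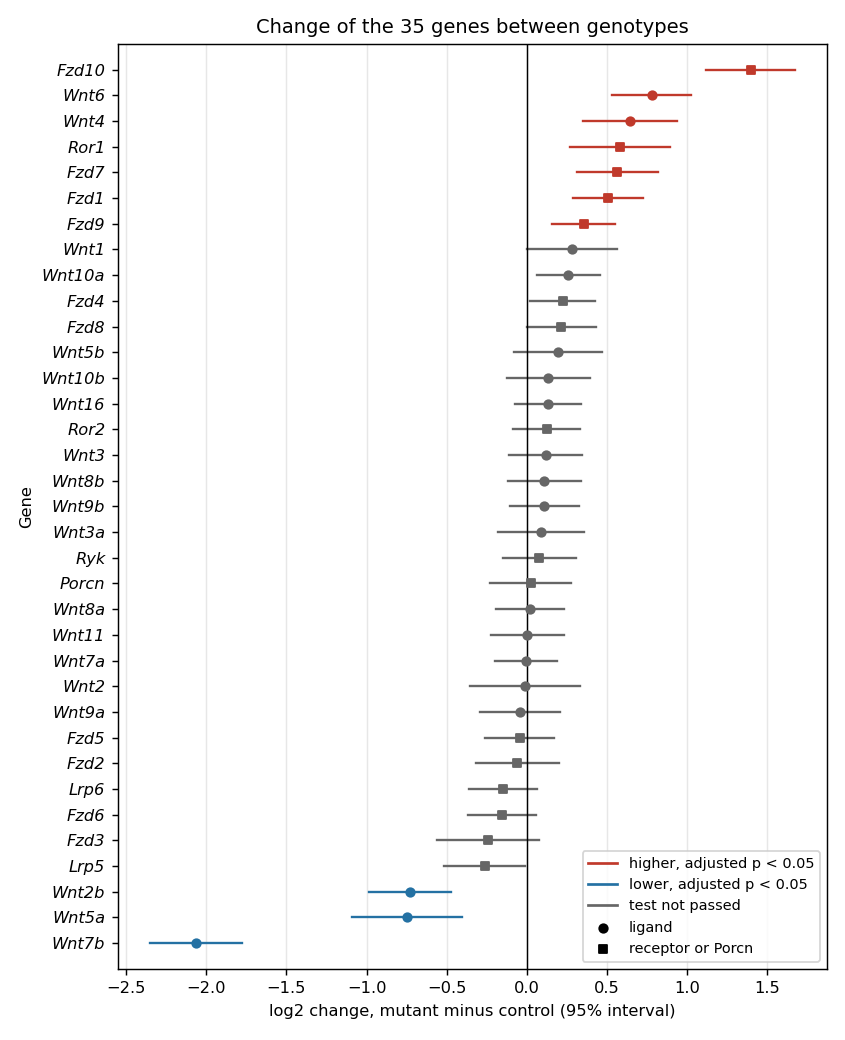
Log2 change (mutant minus control, horizontal axis) of the 35 genes (vertical axis) with its 95% interval from limma, for 3 pools per genotype. Circles are ligands, squares are receptors or Porcn, and colour marks genes past an adjusted p of 0.05. Wnt7b at -2.06 and Fzd10 at 1.39 lie at the ends.

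Ctnnb1 itself did not pass (log2 change 0.28, standard error 0.11, adjusted p = 0.148), and since the array summarizes probes along the whole transcript, this value does not check the loss of exon 3. Among markers of the pancreatic primordium, 5 of the 6 measured were lower, Pdx1 with a log2 change of -4.16, and their summed array signal (values taken off the log scale) was 14873.4 to 18213.6 in the control pools and 3110.4 to 3308.9 in the mutant pools. All 8 epithelial markers were lower (sums of 15540.3 to 17397.6 against 8668.4 to 9385.9), and all 8 markers of gut mesenchyme and smooth muscle were higher (2606.8 to 3011.6 against 9536.3 to 11435.8). Of 8 general mesenchymal markers 2 were higher and 1 was lower, with sums that overlap (20421.6 to 21462.5 against 19568.7 to 21325.8). In lists named after other cell types, 3 of 5 mesothelial and 5 of 5 neural and glial genes were lower (sums of 2006.5 to 2391.6 against 1314.0 to 1706.6, and of 1251.0 to 1318.0 against 392.3 to 420.6). In the neural and glial list Ret (log2 change -2.59) and Dcx (-2.32) fell most, and Tubb3, Sox10 and Elavl4 changed by -0.66 to -0.57. In addition 2 of 5 liver genes, Ttr and Serpina1c, were lower (5428.7 to 7130.1 against 1158.0 to 1453.0). The liver genes Alb (log2 change -0.50), Afp (-0.12) and Apoa1 (-0.42) did not pass. Furthermore 4 of 6 genes of the gut epithelium were higher and 1 lower (517.2 to 576.3 against 1003.2 to 1111.7), and 1 of 5 endothelial genes was higher (4304.4 to 4495.0 against 5199.2 to 5414.8). None of the 5 leukocyte genes passed in limma, 1 having an unadjusted p under 0.05 (sums of 1017.0 to 1180.8 against 1099.5 to 1292.6), and of 2 erythroid genes 1 was higher (359.8 to 669.2 against 428.1 to 556.4). In such pools, fewer cells of a type, less RNA per cell and a change of a listed gene in another cell type cannot be told apart.

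Of the 19 ligand genes, 3 were lower (15.8%, against 7.53% of all genes) and 2 were higher (10.5%, against 6.59%). Wnt7b, a ligand gene of many developing epithelia, had array values (log2) of 8.34, 8.05 and 8.16 in control pools against 6.11, 6.34 and 5.91 in mutant pools. The highest mutant pool lay 1.71 below the lowest control pool (log2 change -2.06, standard error 0.13, adjusted p = 4.26e-06, 95% interval -2.35 to -1.78). The 8 epithelial markers had log2 changes of -1.84 to -0.39, with a median of -0.78. Relative to the mean of these markers in the same pool, Wnt7b stood at -2.12, -2.56 and -2.28 in control pools against -3.51, -3.16 and -3.73 in mutant pools. Relative to that mean Wnt7b thus changed by -1.15 on the log2 scale, with no overlap between the genotypes. The 6 measured markers of the pancreatic primordium had log2 changes of -4.61 to -0.33, with a median of -3.19. The part of epithelial or primordium cells in the decrease of Wnt7b was not tested.

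Wnt5a, the best known ligand of the branch that does not use β-catenin, had array values of 9.74, 9.07 and 9.25 in control pools against 8.60, 8.62 and 8.60 in mutant pools. The control pools were spread over a range of 0.67 and the mutant pools were close together, all below the lowest control pool (log2 change -0.75, standard error 0.15, adjusted p = 0.0085). Wnt2b, which signals through β-catenin in foregut development, had array values of 8.46, 8.28 and 8.61 in control pools against 7.57, 7.80 and 7.81 in mutant pools. Again the genotypes did not overlap (log2 change -0.73, standard error 0.11, adjusted p = 0.0018). In the same pools the 8 general mesenchymal markers had log2 changes of -0.45 to 0.84 with a median of 0.00, and the 5 mesothelial markers of -0.94 to 0.06 with a median of -0.51. Relative to the mean of the mesenchymal markers in the same pool Wnt5a changed by -0.83 and Wnt2b by -0.81, and relative to the mesothelial markers Wnt2b changed by -0.30 with pools that overlapped. The part of mesothelial cells in the decrease of Wnt2b was not tested. Wnt5a had an adjusted p of 0.0554 once every table row, named or not, entered the fit.

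Wnt6 and Wnt4 moved the other way. Wnt6, a ligand gene of surface and other epithelia, had array values of 5.84, 5.68 and 5.75 in control pools against 6.65, 6.33 and 6.62 in mutant pools, and the lowest mutant pool was above the highest control pool (log2 change 0.78, standard error 0.11, adjusted p = 0.000934). Wnt4, which is needed for the formation of kidney tubules and of the female reproductive tract, had array values of 7.68, 7.94 and 7.64 in control pools against 8.60, 8.42 and 8.18 in mutant pools (log2 change 0.64, standard error 0.13, adjusted p = 0.00803). The second row of Wnt4 read 6.77, 7.16 and 6.54 in control pools against 7.54, 7.51 and 7.52 in mutant pools. That row (log2 change 0.71, standard error 0.16) was higher in all 3 mutant pools too, with an adjusted p of 0.0521 in the fit of all rows. In that same limma fit the first row of Wnt4 had an adjusted p of 0.0488. The increases of Wnt6 and Wnt4 came to 1.71-fold and 1.56-fold.

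**Figure D2:**
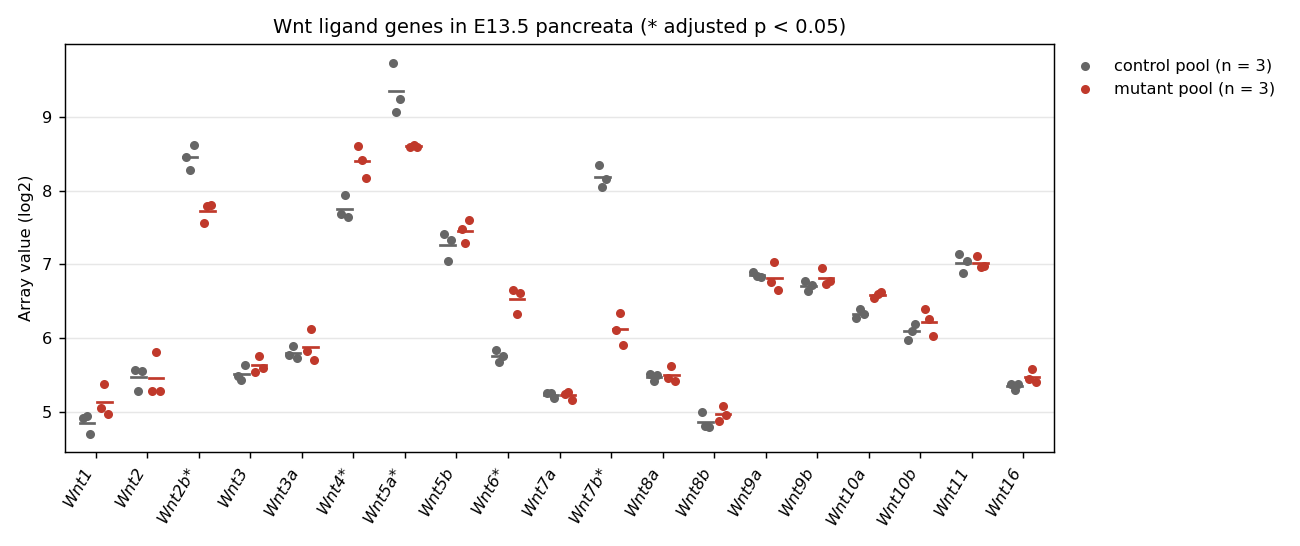
Array values (log2, vertical axis) of the 19 Wnt ligand genes (horizontal axis). Each point is 1 pool, a horizontal bar is the mean of 3 pools, grey for control and red for mutant, and asterisks mark an adjusted p under 0.05. Wnt7b, Wnt2b and Wnt5a are lower and Wnt4 and Wnt6 are higher in every mutant pool.

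The other 14 ligand genes did not pass the test and had log2 changes between -0.04 and 0.28. Closest to the threshold was Wnt10a, with array values of 6.28, 6.40 and 6.32 in control pools against 6.54, 6.60 and 6.63 in mutant pools (log2 change 0.26, standard error 0.09, adjusted p = 0.0868). Wnt1, the founding member of the family, had array values of 4.92, 4.94 and 4.70 in control pools against 5.05, 5.38 and 4.97 in mutant pools (log2 change 0.28, standard error 0.13, adjusted p = 0.196). In both genes the genotypes did not overlap, as was also the case for Wnt16 (log2 change 0.13, adjusted p = 0.437). These are 3 of the 14 genes, and over all genes 30.9% had pools that did not overlap. Wnt5b, the relative of Wnt5a, had array values of 7.41, 7.05 and 7.33 in control pools against 7.49, 7.30 and 7.60 in mutant pools (log2 change 0.19, standard error 0.12, adjusted p = 0.385), and here the pools overlapped. The remaining 10, Wnt2, Wnt3, Wnt3a, Wnt7a, Wnt8a, Wnt8b, Wnt9a, Wnt9b, Wnt10b and Wnt11, had overlapping pools and log2 changes from -0.04 (Wnt9a) to 0.13 (Wnt10b). The 95% intervals of the 14 genes lay between -0.35 and 0.56. No detection calls were used, so these data do not say which of the ligand genes were transcribed at all.

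Among the 10 Frizzled genes 4 rose (40.0%, against 6.59% of all genes) and 6 did not pass. None of the 6 had an unadjusted limma p under 0.05 for a decrease. Fzd10 had array values of 6.17, 6.31 and 6.32 in control pools against 7.58, 7.48 and 7.92 in mutant pools, and the lowest mutant pool lay 1.16 above the highest control pool (log2 change 1.39, standard error 0.12, adjusted p = 4.61e-05, 95% interval 1.12 to 1.67). Frizzleds are receptors with 7 membrane-spanning helices and an outer cysteine-rich domain that holds the ligand's lipid. Fzd7, a receptor known from stem cells of the gut epithelium, had array values of 10.05, 9.75 and 9.88 in control pools against 10.46, 10.60 and 10.31 in mutant pools (log2 change 0.56, standard error 0.11, adjusted p = 0.00754). Its close relative Fzd1 had array values of 8.93, 8.84 and 8.69 in control pools against 9.36, 9.26 and 9.35 in mutant pools (log2 change 0.50, standard error 0.10, adjusted p = 0.00609). For Fzd9 the difference was smaller than for the other 3 genes, with array values of 6.58, 6.48 and 6.47 in control pools against 6.91, 6.85 and 6.83 in mutant pools (log2 change 0.35, standard error 0.09, adjusted p = 0.0227). All 4 genes had their 3 mutant pools above their 3 control pools. In these pools the 8 markers of gut mesenchyme and smooth muscle had log2 changes of 1.09 to 4.01, and their part in the increase of the Frizzled genes, Ror1, Wnt4 and Wnt6 was not tested.

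Fzd9 kept its call without control replicate 1 (adjusted p = 0.0462) or mutant replicate 2 (0.038). The call was lost without control replicate 2 (adjusted p = 0.0621), control replicate 3 (0.0717), mutant replicate 1 (0.112) or mutant replicate 3 (0.0506) and once every table row entered the fit (0.0628), at log2 changes of 0.33 to 0.39 over the 6 fits that leave out an array. Of the 5 receptor genes called higher, counting Ror1, 3 were left without control replicate 2, without mutant replicate 1 or without mutant replicate 3.

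The 4 Frizzled genes that rose are shown with the 250 bases before their RefSeq transcription start (assembly GRCm38.p6). They were picked for their increase, so their shared direction is no separate result. β-catenin is known to act on DNA through TCF and LEF factors. Whether it acts on these genes was not tested. The words searched on both strands, CTTTGAA with its variants CTTTGAT as well as CTTTGTA and lastly CTTTGTT, are forms of the TCF/LEF consensus, and capitals mark a match.
Fzd1, chr5:4758217-4758466, minus strand: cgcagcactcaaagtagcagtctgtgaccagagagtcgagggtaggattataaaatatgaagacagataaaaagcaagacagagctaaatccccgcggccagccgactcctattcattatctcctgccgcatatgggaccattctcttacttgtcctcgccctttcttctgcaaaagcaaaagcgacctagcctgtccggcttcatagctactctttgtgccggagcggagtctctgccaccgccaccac
Fzd7, chr1:59481897-59482146, plus strand: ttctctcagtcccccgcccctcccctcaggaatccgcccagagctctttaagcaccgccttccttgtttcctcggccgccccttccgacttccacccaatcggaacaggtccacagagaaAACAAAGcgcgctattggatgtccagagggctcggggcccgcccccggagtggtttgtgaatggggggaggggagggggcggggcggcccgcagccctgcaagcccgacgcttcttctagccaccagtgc
Fzd9, chr5:135251048-135251297, minus strand: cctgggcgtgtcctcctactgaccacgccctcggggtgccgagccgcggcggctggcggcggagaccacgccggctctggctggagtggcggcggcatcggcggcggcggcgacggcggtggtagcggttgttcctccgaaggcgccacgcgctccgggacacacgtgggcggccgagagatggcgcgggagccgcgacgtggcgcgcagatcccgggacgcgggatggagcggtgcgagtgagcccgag
Fzd10, chr5:128600856-128601105, plus strand: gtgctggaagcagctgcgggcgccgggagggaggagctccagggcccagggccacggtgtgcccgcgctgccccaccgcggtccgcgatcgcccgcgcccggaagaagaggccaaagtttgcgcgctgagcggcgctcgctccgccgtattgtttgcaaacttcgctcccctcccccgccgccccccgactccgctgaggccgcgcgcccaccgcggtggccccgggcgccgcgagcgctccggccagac
Fzd7 held 1 match, AACAAAG (the reverse strand of CTTTGTT), whose first base lies 130 bases before the start, and the windows of Fzd1, Fzd9 and Fzd10 held none of these letters. Among the 27 promoters listed for 24 of the members, 3 held a word (11.1%), those of Fzd7 and 1 start each of Wnt11 and Wnt5b, and among all 32851 promoters 14.8% did. The windows of Wnt2b, Wnt4, Wnt6 and Ror1, also past the test, held no word, and Wnt5a and Wnt7b had no listed promoter. GC content was 51.2% for Fzd1, 65.2% for Fzd7 and 76.4% for both Fzd9 and Fzd10. A match is a description of the letters in this window, and distant regulatory regions were not searched.

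The 6 Frizzled genes that did not pass had log2 changes of -0.24 to 0.22. Fzd4, the receptor of Norrin as well as of Wnt ligands, had array values of 8.51, 8.57 and 8.39 in control pools against 8.71, 8.67 and 8.75 in mutant pools (log2 change 0.22, standard error 0.09, adjusted p = 0.155). Fzd8 had array values of 8.72, 8.63 and 8.47 in control pools against 8.78, 8.84 and 8.85 in mutant pools (log2 change 0.21, standard error 0.10, adjusted p = 0.201). Both genes had their mutant pools above their control pools by a margin too small to pass, and over all genes 30.9% had pools that did not overlap. Fzd3, which acts in axon guidance and planar polarity, had array values of 8.79, 8.49 and 9.09 in control pools against 8.63, 8.50 and 8.51 in mutant pools (log2 change -0.24, standard error 0.14, adjusted p = 0.337), with control replicate 3 as the highest. Fzd2, Fzd5 and Fzd6 had overlapping pools and log2 changes of -0.06, -0.05 and -0.15.

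**Figure D3:**
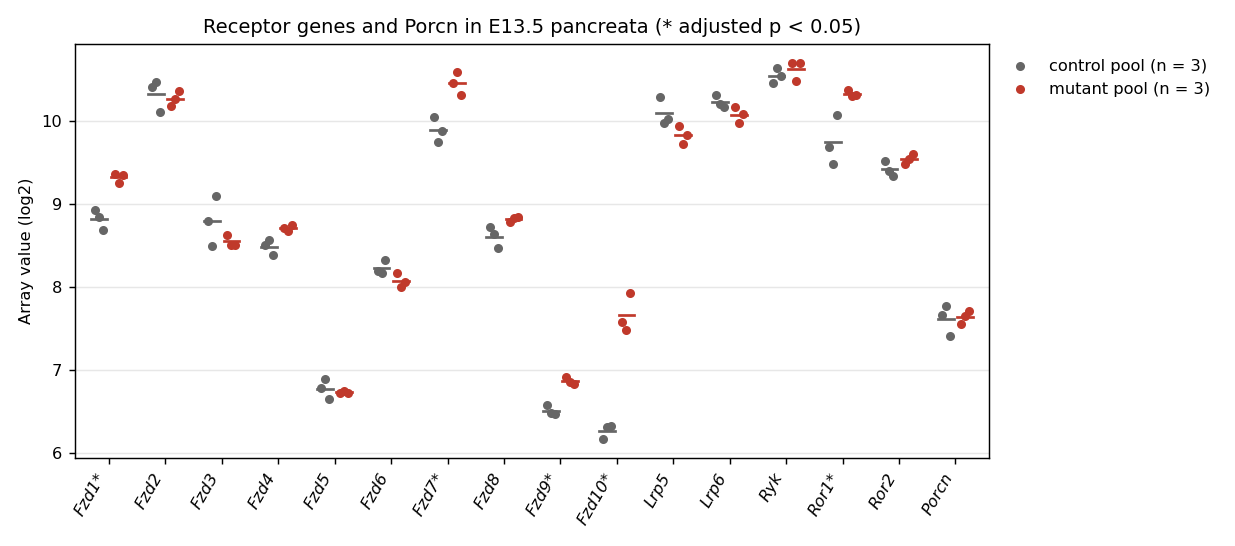
Array values (log2, vertical axis) of the 10 Frizzled genes, 5 coreceptor and kinase-type receptor genes and Porcn (horizontal axis). Each point is 1 pool, a horizontal bar is the mean of 3 pools, grey for control and red for mutant, and asterisks mark an adjusted p under 0.05. Fzd1, Fzd7, Fzd9, Fzd10 and Ror1 are higher in every mutant pool, and no receptor gene passed the test in the other direction.

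Among the 5 coreceptors and kinase-type receptors, 1 was higher (20.0%, against 6.59% of all genes) and 4 did not pass. Ror1, a receptor with a tyrosine kinase domain that binds Wnt5a, had array values of 9.68, 9.48 and 10.08 in control pools against 10.37, 10.30 and 10.31 in mutant pools (log2 change 0.58, standard error 0.14, adjusted p = 0.0204). The highest control pool, replicate 3, lay 0.59 above the lowest, and the mutant pools were within 0.07 of each other. The call was lost without control replicate 1 (adjusted p = 0.0769), control replicate 2 (0.0579), mutant replicate 1 (0.0743) or mutant replicate 3 (0.0541) and once every table row entered the fit (0.0897), at log2 changes of 0.45 to 0.74 over the 6 fits that leave out an array. Ror2, its relative, had array values of 9.52, 9.40 and 9.33 in control pools against 9.48, 9.54 and 9.60 in mutant pools (log2 change 0.12, standard error 0.09, adjusted p = 0.48), and its pools overlapped.

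Lrp5 and Lrp6 are the coreceptors that couple Frizzleds to β-catenin. Lrp5 had array values of 10.29, 9.97 and 10.02 in control pools against 9.94, 9.73 and 9.83 in mutant pools, with all mutant pools under the lowest control pool, and did not pass (log2 change -0.26, standard error 0.11, adjusted p = 0.173), although it was the one receptor gene lower at an unadjusted p under 0.05. Lrp6 had array values of 10.31, 10.21 and 10.17 in control pools against 10.17, 9.97 and 10.09 in mutant pools (log2 change -0.15, standard error 0.10, adjusted p = 0.383). For Ryk, a receptor whose kinase domain is inactive, the log2 change was 0.08 (standard error 0.10, adjusted p = 0.714). Porcn, the acyltransferase that all ligands of the family need, had array values of 7.67, 7.77 and 7.41 in control pools against 7.55, 7.66 and 7.71 in mutant pools (log2 change 0.02, standard error 0.11, adjusted p = 0.934, 95% interval -0.23 to 0.28).

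Relatives within the family were then compared inside each array, as the difference between the log2 values of 2 genes, in 21 pairs taken from shared names, Frizzled subfamilies or neighbouring positions. The exact two-sided permutation test of 3 pools against 3 cannot go below p = 0.1, which 11 pairs reached (0.191 after Benjamini-Hochberg adjustment over the 21 pairs), all with pools that did not overlap. No share of such pairs was taken over all genes, of which 30.9% had pools that did not overlap when read singly. Most of the 11 pairs hold a member past the test and several share a gene, so their number is no separate result. Wnt7b changed by -2.06 relative to Wnt7a, Wnt5a by -0.94 relative to Wnt5b and Wnt2b by -0.72 relative to Wnt2 on the log2 scale. In each of these pairs the second gene did not pass the test by itself. Wnt7a and Wnt2 each had a log2 change of -0.01, so their pairs repeat the changes of Wnt7b and Wnt2b. Of the 19 ligand genes, 14 had a mean array value below the median of all genes and 4 below the lower quartile. Of the 10 Frizzled genes 3, Fzd5, Fzd9 and Fzd10, were below that median and none below the lower quartile. In the subfamily of Fzd1, Fzd2 and Fzd7, the difference to Fzd2 changed by 0.56 for Fzd1 and by 0.62 for Fzd7, and that between Fzd7 and Fzd1 by 0.06, with overlapping pools. In the subfamily of Fzd4, Fzd9 and Fzd10, Fzd10 changed by 1.04 relative to Fzd9 and by 1.17 relative to Fzd4, and Fzd9 by 0.13 relative to Fzd4. For Fzd9 against Fzd4 the nearest pools were at -1.915 (control) and -1.914 (mutant). Fzd8 changed by 0.26 relative to Fzd5. Ror1 against Ror2 (0.46) and Lrp5 against Lrp6 (-0.11) had overlapping pools, each with an exact permutation p = 0.2.

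Several ligand genes lie next to each other in the genome, with no protein-coding gene between them. These neighbours are Wnt6 and Wnt10a on chromosome 1, Wnt3a and Wnt9a as well as Wnt9b and Wnt3 on chromosome 11, and Wnt10b and Wnt1 on chromosome 15. Wnt6 was the one gene of these 4 pairs past the test, and it changed by 0.52 relative to Wnt10a, with pools that did not overlap. Wnt3a changed by 0.13 relative to Wnt9a, where the nearest pools were at -0.954 (control) and -0.953 (mutant) and neither gene passed the test. The pools overlapped for Wnt3 against Wnt9b (0.01) and for Wnt1 against Wnt10b (0.15). The gene models of Wnt9b and Wnt3 overlap, and whether the probes separate them was not tested.

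Other genes of the pathway were read from the same fit, in lists drawn up by place in the pathway. Over all genes 6.59% were higher and 7.53% lower. Of 18 targets and nuclear effectors 6 were higher and 1, Tcf7l2, was lower (median log2 change 0.22). Those with the largest changes were Sp5 (2.83), Nkd1 (2.50), Axin2 (1.47) and Cd44 (1.10), and Sp5, Nkd1 and Axin2 are widely used readouts of the pathway. Of 17 secreted antagonists 8 were higher and 2, Cer1 and Draxin, were lower (median 0.23), and Wif1 (3.29), Dkk1 (2.14) and Dkk3 (1.36) rose while Cer1 changed by -2.77. Of 9 genes of the R-spondin branch, which controls how many Frizzleds stay on the cell surface, 4 were higher and 1, Rspo4, was lower (median 0.25). Lgr5 (4.44), Rnf43 (1.17), Rspo3 (0.86) and Znrf3 (0.64) rose, Rnf43 and Znrf3 being the ligases that remove Frizzleds.

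Among 8 genes of ligand secretion and inactivation 2 were higher, Notum (4.02), an enzyme that takes the lipid off Wnt ligands, and Trabd2b (0.48), a protease that cuts them (list median 0.10). Trabd2b lost its call without control replicate 1 (adjusted p = 0.0508) and once every table row entered the fit (0.0605). Wls, the carrier of Wnt ligands to the cell surface, had a log2 change of -0.14 (adjusted p = 0.452). None of the 15 cytoplasmic transducers passed the test in limma, where 4 of them had an unadjusted p under 0.05 (median -0.02), and Csnk1e came closest (log2 change 0.30, standard error 0.09, adjusted p = 0.0619). Csnk1e passed with arrays centred on their medians (adjusted p = 0.0454), among genes above the lower quartile (0.039) or the median of level (0.0329) and with a trended robust prior (0.0265). Of 19 genes of planar polarity and the branch without β-catenin, 3 were higher and 4 were lower (median 0.04). Daam2 (0.96) rose, and the atypical cadherin genes Celsr3 (-0.76), Celsr1 (-0.61) and Celsr2 (-0.58) fell, as did Nfatc1 (-0.41). In a mixed list of 8 further receptors and other partners of the pathway 2 were higher (median 0.09), Tspan12 (1.72), a partner of Fzd4, and Mcc (0.51). The call of Mcc was lost when any 1 array other than control replicate 1 was left out (adjusted p from 0.0667 to 0.106) and once every table row entered the fit (0.125). Standard errors of the genes named here lay between 0.09 and 0.19.

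**Figure D4:**
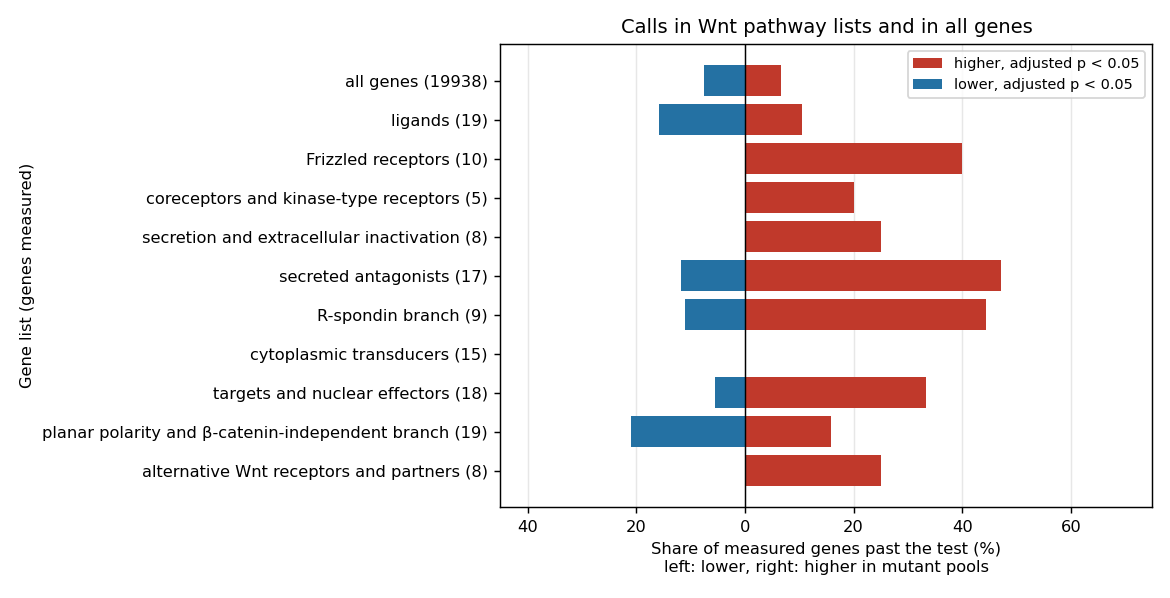
Share of measured genes (%, horizontal axis) with an adjusted p under 0.05, called higher (right, red) or lower (left, blue) in mutant pools, for all genes and for lists of the Wnt pathway (vertical axis, number of genes measured in brackets). Of the 10 Frizzled genes 40.0% were higher, of the 19 ligand genes 10.5% were higher and 15.8% lower, and of all genes 6.59% were higher and 7.53% lower.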

How the data were processed

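RNA of E13.5 mouse pancreata was measured in 3 control and 3 mutant pools, grouped by their titles. The values that the authors deposited are on a log2 scale, 1 per transcript cluster of an Affymetrix Mouse Gene ST array, and appear normalized between arrays (array medians of 6.37 to 6.47). How background, summarization and normalization were handled was not given in the sources used here. Of 35556 rows, 21789 have 1 gene symbol, 1621 several and 12146 none. Rows with 1 symbol were used as deposited, the brightest over the 6 arrays where a gene had several, which left 19938 genes.

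Genotypes were compared with limma 3.58.1 in R 4.3.3 (lmFit, eBayes, no covariate), as the methods name it, with the Benjamini-Hochberg adjustment over all genes and a threshold of 0.05. The step was tested on simulated data. The labels do not say how replicates were separated beyond calling them biological, and the study describes independent pools. Samples of the same replicate number did not deviate together (correlations of deviations from the group means across genes of 0.01, -0.15 and -0.05), so numbers were not used as pairs. The number of arrays limits the precision.

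The text names all members, with values per pool for those past the test and the 3 closest to it in each role, and from each pathway list the 4 largest changes among genes past the test, or, where none passed, the gene with the smallest p. Tcf7l2, Draxin, Rspo4, Nfatc1, Wls and Ctnnb1 were added after their values were seen. The members and lists were chosen with earlier results of these data known. Of the listed pathway and marker genes, 13 have no row with that symbol alone and are not analysed here. Promoters come from RefSeq (GRCm38.p6). Alternatives were a replicate block, leaving out each array, 3 other scalings, 2 filters on level, the mean of all rows, all rows in the fit, a trended robust prior and unadjusted p-values. Tables and figures used Python 3.11.15, pandas 2.3.3 and matplotlib 3.10.9.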

Additional observations from a re-analysis of the deposited data

How the results depend on the processing

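Of the 10 members past the test, 7 (Wnt2b, Wnt4, Wnt6, Wnt7b, Fzd1, Fzd7 and Fzd10) kept call and direction under every alternative in which they were tested. Wnt5a lost its call in 1 of them, with all rows in the fit, and Fzd9 and Ror1 in those named above. Of the 25 members that did not pass, Wnt10a alone passed an adjusted threshold under an alternative, quantile normalization (adjusted p = 0.0385). With the replicate number as a block, 9 members were called and 1011 genes were higher and 1274 lower, and Fzd9 was the member that no longer passed (log2 change 0.35, adjusted p = 0.0516). Control replicate 1 did not correlate best with mutant replicate 1, and the numbers are not known to pair the pools. With each array centred on its own median or on housekeeping genes, all 10 members passed, and 10 of 11 called under quantile normalization were these.

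Among genes above the median of level, 1137 genes were higher and 1105 lower. Of the 18 members left to test there, 4 were higher, 1 of them a ligand and 3 receptors, and 3, all ligands, were lower. Wnt6, Fzd9 and Fzd10 lay below this level and were not tested there. With all rows in the fit 751 genes were higher, and of the receptors 3. At an unadjusted p under 0.05, 2695 genes were higher and 2386 lower. Of the ligands 4 were higher and 3 lower, and of the receptors 6 were higher and 1, Lrp5, was lower. Over the fits that leave out 1 array, 843 to 1328 genes, 5 to 7 members and 3 to 5 receptors were higher and 1132 to 1413 genes lower, while 2 ligands were higher and 3 lower in each.

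Small changes that did not pass turned sign. Wnt2 changed by 0.0264 and Wnt7a by 0.0323 with each array centred on its median, Wnt2 by 0.0125, Wnt7a by 0.00651, Wnt9a by 0.00721 and Fzd5 by 0.00283 under quantile normalization, and Wnt11 by -0.00896 with the housekeeping genes. Without 1 array the log2 change ran from -0.186 to 0.0769 for Wnt2, -0.0301 to 0.178 for Wnt3a, -0.0305 to 0.0296 for Wnt7a, -0.0409 to 0.0645 for Wnt8a, -0.153 to 0.0354 for Wnt9a, -0.0682 to 0.0627 for Wnt11, -0.171 to 0.0129 for Fzd2, -0.11 to 0.0109 for Fzd5 and -0.0804 to 0.102 for Porcn. The cause was not tested. Without detection calls or probe signals, signal over background could not be given.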

Other observations

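The spread between pools was also read by role. Among the 15 receptor genes the standard deviation over control pools exceeded that over mutant pools in 11, with medians of 0.12 and 0.07 on the log2 scale. Among the 19 ligand genes it did so in 6, with medians of 0.11 and 0.14. Over all genes tested the share was 48.9%, with medians of 0.11 and 0.12. Wnt5a (0.35 in control pools, 0.01 in mutant pools), Ror1 (0.30 and 0.04) and Fzd3 (0.30 and 0.07) had the largest control values among the members. These are values of 3 pools per genotype, and the difference in spread was not tested.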
